A study of Homo sapiens
Mus musculus and Homo sapiens with 12 samples.

Results

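The 23 human genes described here were unlisted in both co-cultures of mouse stem cells and human fibroblasts, under 0.5 in unfused fibroblast replicate 2, and at 2 or more in both heterokaryon libraries of day 2. Values are read as RPKM, which scales reads by transcript length and library depth, a unit inferred from their form, since no label states it. The 23 genes came out of 5526 human genes whose coding accessions all lie in the covered part of the tables, of which 2914 were silent in the co-cultures and in that fibroblast library by the same limits. With the genes left out by name, 33 of these 2914 (1.13%) reached 2 in both day 2 libraries, a share the choice itself fixes. A further 10 genes met the same values and were left out by name: CEACAM1, KDM4E, LEUTX, PRAMEF8, PRAMEF11, PRAMEF12, RFPL4A, RFPL4B, TRIM43B and TRIM49C. The values of day 2, of co-culture and of unfused fibroblast replicate 2 chose the genes, so they are given as a description with no test. Days 1 and 3 and the homokaryon library took no part in the choice.

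PolyA RNA was sequenced from heterokaryons, made by fusing D3 cells (a mouse embryonic stem cell line) with MRC5 cells, on days 1, 2 and 3, with 2 libraries per day. MRC5 cells are human lung fibroblasts, and the heterokaryons were sorted before RNA extraction. Controls were 2 co-cultures, in which the same cell types shared a culture without fusing and were pooled for 1 harvest, 3 samples labelled unfused fibroblasts, and 1 homokaryon sample of fibroblasts fused with each other. Both cell types are thus present in co-culture and heterokaryon libraries, and no mouse cell in the others by their labels. The labels name no separate cultures, so a p-value here measures only the spread between these samples, which may be technical. Each mixed sample is a bulk population, in which a few cells with much RNA of a gene and many cells with little cannot be told apart.

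In a heterokaryon the nuclei of both parents stay separate in one cytoplasm, so proteins of one parent can reach the chromatin of the other without cell division. Fusion with a stem cell is used to study how a differentiated nucleus starts to transcribe genes that its own lineage keeps silent. A differentiated cell holds such genes inactive through DNA methylation, repressive chromatin and the lack of the transcription factors that drive them. The genes below are best known from epithelia, immune cells, nerve cells, testis, pancreas and other tissues, and they are grouped by what each is known to do, a grouping made after the genes were known.

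The deposited tables list no 0, so 0 below means that a gene was unlisted within the covered part of a table. Such a 0 can be a failed estimate: KRT8 was unlisted in day 2 replicate 1 and stood at 233 in day 2 replicate 2. Of 550 genes between 2 and 8 RPKM in co-culture replicate 1, 40 (7.27%) were at 0 in replicate 2, and of 558 such genes in replicate 2, 25 (4.48%) were at 0 in replicate 1. The same share was 8.37% and 4.55% on day 2, 7.91% and 9.42% on day 3, but 22.1% and 16.8% on day 1. A single 0 thus does not establish that a gene was absent, least of all on day 1. Between 38.2% and 52.9% of the 5526 genes were listed in each library, with day 2 replicate 1 at the top of that range. Read totals are not given in the sources used here, so the depth is unknown and no interval for counting error can be given. The fibroblast markers covered by the tables summed to 4739 to 7811 RPKM in the heterokaryons, 7003 and 7097 in co-culture, 16130 in the homokaryon library and 7728 in unfused fibroblast replicate 2, and none of the 9 was at 0 in every library.

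On day 2 the 23 genes ranged from FOXI3, with a mean of 2.26 RPKM, to CCL3, with a mean of 16.9 RPKM. Their median of 3.45 lay below 4.30, the median of the 3066 covered genes listed in a day 2 library, and 9 of the 23 were above that median. The replicates of day 2 differed by a factor of 1.32 in the median gene, from INPP5J, at 2.63 in both, to CST6, with a factor of 3.68. Of the 23, 8 were listed in unfused fibroblast replicate 2, at no more than 0.179 RPKM (AKR1B15). Of the other 2891 silent genes 312 (10.8%) were listed there, so the 23 were listed more often than silent genes at large. The table of unfused fibroblast replicate 1 covers 6 of them, and gave 0.338 for COL17A1, 0.0869 for SOWAHB, 0.0143 for INSYN2A and 0 for FOXI3, KCTD19 and SIGLEC14. Just inside the limit of 2 on day 2 were FOXI3 at 2.03 and 2.49, KCNJ10 at 3.46 and 2.11 and TGM4 at 2.13 and 2.56. Just outside it were RARRES2 at 1.98 and 7.43, CDH3 at 3.04 and 1.86 and HPCA at 1.83 and 4.27.

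**Figure D1:**
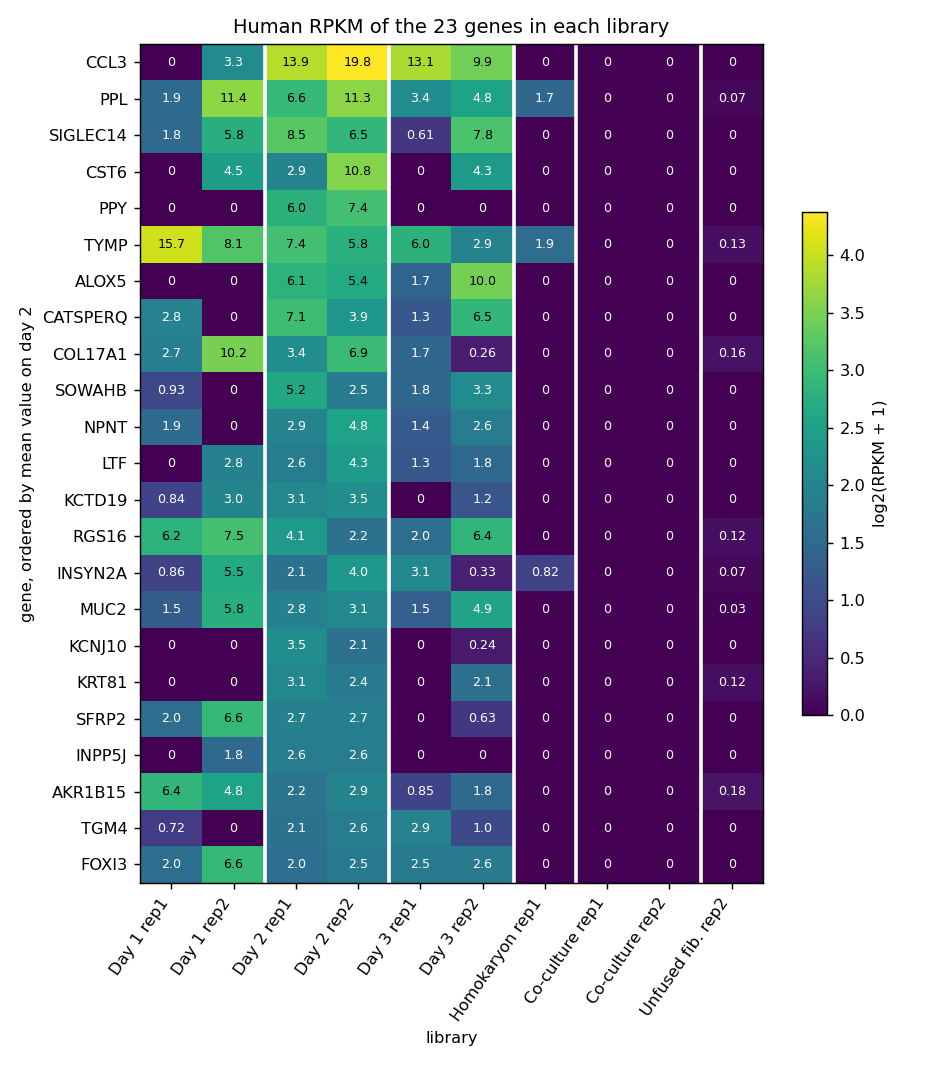
Human RPKM of the 23 genes (rows, by mean value on day 2) in 10 libraries (columns), with colour on a log2 scale after adding 1 and the value printed in each cell. The day 2 and co-culture columns are fixed by the choice of genes, while the homokaryon column holds only 3 values above 0 and days 1 and 3 hold a mixture of high values and zeros.

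Immune genes include the highest value of the set. CCL3, a chemokine that draws monocytes and lymphocytes, stood at 0 and 3.34 RPKM on day 1, 13.9 and 19.8 on day 2, and 13.1 and 9.88 on day 3, and was at 0 in the homokaryon library. Both libraries of day 3 lay above both of day 1. CCL3L3, a near copy of CCL3 with which reads may be shared, was at 2.12 and 1.64 on day 3 and at 0 in the 8 other libraries with gene values. The adjacent chemokine genes CCL4 and CCL18 and the chemokine receptor gene CCR1 were at 0 in all 10 libraries. ALOX5, the 5-lipoxygenase that starts leukotriene synthesis, was at 0 in both libraries of day 1, at 6.12 and 5.38 on day 2 and at 1.67 and 10.04 on day 3. Its 2 libraries of day 3 differed more from each other than those of any other day. The ALOX5 level is the sum of 3 listed transcripts, the largest of which averaged 2.14 on day 2. ALOX5AP, the protein that presents arachidonic acid to ALOX5, was at 0 except for 1.23 in co-culture replicate 2, and LTA4H, which makes leukotriene B4, was listed in every library. SIGLEC14, a sialic acid receptor of myeloid cells, was at 1.81 and 5.80 on day 1, 8.52 and 6.45 on day 2 and 0.608 and 7.81 on day 3. Its near copy SIGLEC5 lies past the covered part, so a sharing of reads between them could not be examined. LTF, the iron-binding lactoferrin of milk and neutrophils, was at 0 and 2.81 on day 1, 2.64 and 4.25 on day 2 and 1.31 and 1.82 on day 3. The LTF level is the sum of 2 listed transcripts, the larger of which averaged 1.74 on day 2. The 5 covered haematopoietic markers summed to 4.15 and 0 RPKM on day 1, 2.17 and 2.08 on day 2, 0 and 0.998 on day 3 and 0 in both co-cultures, with CD3E and HBB at 0 in every library. These sums overlap the levels of the immune genes, and their part in those levels was not tested.

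Several of the genes are known from stratified and secretory epithelia, though none is in the epithelial and keratinocyte list that was used. PPL, a plakin that links keratin filaments to the cornified envelope of skin, stood at 1.90 and 11.4 RPKM on day 1, 6.63 and 11.3 on day 2 and 3.38 and 4.804 on day 3. It was 1 of 3 genes listed in the homokaryon library, at 1.72, below each of the 6 heterokaryon values. Its partner EVPL was at no more than 1.35 in any library. COL17A1, the transmembrane collagen of hemidesmosomes, was at 2.70 and 10.2 on day 1, 3.41 and 6.94 on day 2 and 1.73 and 0.258 on day 3, so both libraries of day 3 lay below both of day 1. ITGB4, the integrin subunit that joins COL17A1 in hemidesmosomes, took another course, with 0.326 and 0.610 on day 1, 2.87 and 4.59 on day 2 and 2.72 and 6.15 on day 3, against 0.147 and 0.709 in co-culture. CST6, a cystatin that inhibits proteases of the skin barrier, was at 0 and 4.46, then 2.94 and 10.8, then 0 and 4.25, and replicate 2 was the higher on each day. KRT81, a hair keratin, was unlisted on day 1, at 3.10 and 2.45 on day 2 and at 0 and 2.06 on day 3. The similar hair keratin genes KRT83 and KRT86, the latter overlapping KRT81, were at 0 in all 10 libraries.

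MUC2, the main gel-forming mucin of the gut, was listed in all 6 heterokaryon libraries, at 1.46 and 5.82 RPKM on day 1, 2.81 and 3.13 on day 2 and 1.48 and 4.91 on day 3. MUC5AC was at 0 in all 10 libraries and MUC5B at no more than 0.104, while MUC1 was listed in both co-cultures, at 4.89 and 10.5. FOXI3, a forkhead factor of ectodermal organs, was at 1.98 and 6.59 on day 1, 2.03 and 2.49 on day 2 and 2.53 and 2.55 on day 3. NPNT, nephronectin, a basement membrane ligand of integrins, was at 1.87 and 0, then 2.88 and 4.84, then 1.43 and 2.56. The NPNT level is the sum of 5 listed transcripts, the largest of which averaged 0.81 on day 2. TGM4, the transglutaminase of the prostate, was at 0.723 and 0, then 2.13 and 2.56, then 2.86 and 0.968. The libraries of days 1 and 3 overlapped for MUC2, FOXI3 and NPNT, while both TGM4 values of day 3 lay above both of day 1. The epithelial markers EPCAM, KRT8, KRT19 and CLDN4 summed to 109 to 595 RPKM in the 6 heterokaryon libraries, against 5.94 and 20.3 in co-culture, 16.7 in the homokaryon library and 7.98 in the unfused fibroblasts of replicate 2. KRT8 and KRT19 made up most of these sums. EPCAM was at no more than 3.33 in the heterokaryons, at 0 in day 1 replicate 1 and day 2 replicate 2, and at 1.03 in the homokaryon library. None of these 4 markers was at 0 in every library, and their part in the levels of the epithelial genes was not tested.

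Signalling genes followed differing courses. SFRP2, a secreted antagonist of Wnt ligands, stood at 1.97 and 6.59 RPKM on day 1, 2.75 and 2.71 on day 2 and 0 and 0.628 on day 3. Its values of day 3 lay below all others of the heterokaryons. SFRP1, a related antagonist that fibroblasts express, was at 704 and 744 in co-culture and 69.3 to 200 in the heterokaryons, and SFRP4 and SFRP5 were at 0 in all 10 libraries. RGS16, which speeds the shut-off of G proteins, was at 6.15 and 7.54 on day 1, 4.13 and 2.15 on day 2 and 2.01 and 6.39 on day 3. It and TYMP were the only genes of the 23 at 2 or more in all 6 heterokaryon libraries. RGS2 was listed in every heterokaryon library, but also at 16.1 in the homokaryon library, where RGS16 was at 0. INPP5J, a phosphatase of inositol phospholipids, was at 0 and 1.83 on day 1, 2.63 and 2.63 on day 2 and 0 in both libraries of day 3.

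TYMP, the thymidine phosphorylase that breaks down thymidine, had the highest value of day 1 in this set. It stood at 15.7 and 8.13 RPKM on day 1, 7.44 and 5.84 on day 2 and 6.003 and 2.87 on day 3, against 1.95 in the homokaryon library and 0.131 in unfused fibroblast replicate 2. Both libraries of day 3 lay below both of day 1. Its level is the sum of 5 listed transcripts, the largest of which averaged 1.37 on day 2, and the gene overlaps SCO2, which is not fully covered. UPP1, the uridine phosphorylase, was listed in every library, at 6.23 and 4.58 in co-culture. AKR1B15, an aldo-keto reductase, was at 6.36 and 4.85 on day 1, 2.22 and 2.88 on day 2 and 0.852 and 1.81 on day 3, and its libraries of days 1 and 3 did not overlap. Its near copy AKR1B10 lies past the covered part. The related AKR1B1 was at 144 to 679 in every library, including 212 and 269 in co-culture, where AKR1B15 was at 0.

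PPY, the pancreatic polypeptide hormone, was listed on day 2 alone, at 6.05 and 7.42 RPKM, and at 0 in the 8 other libraries. KCNJ10, an inwardly rectifying potassium channel of glia and kidney, was at 3.46 and 2.11 on day 2 and at 0 elsewhere, but for 0.243 in day 3 replicate 2. INSYN2A, a protein of inhibitory synapses, was at 0.858 and 5.51 on day 1, 2.14 and 4.03 on day 2, 3.13 and 0.328 on day 3 and 0.815 in the homokaryon library. It overlaps DOCK1, which was at 4.89 to 22.7 in all 10 libraries, including 19.0 and 18.9 in co-culture, where INSYN2A was at 0. CATSPERQ, also named TMEM249 and assigned to the sperm calcium channel, was at 2.84 and 0 on day 1, 7.08 and 3.90 on day 2 and 1.31 and 6.46 on day 3. KCTD19, a gene of male meiosis, was at 0.840 and 2.97, then 3.07 and 3.49, then 0 and 1.25. It overlaps PLEKHG4, which was at 4.79 and 7.07 on day 2 but also at 6.33 in co-culture replicate 1. SOWAHB, an ankyrin repeat protein, was at 0.930 and 0 on day 1, 5.25 and 2.53 on day 2 and 1.81 and 3.32 on day 3, where both libraries lay above both of day 1.

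**Figure D2:**
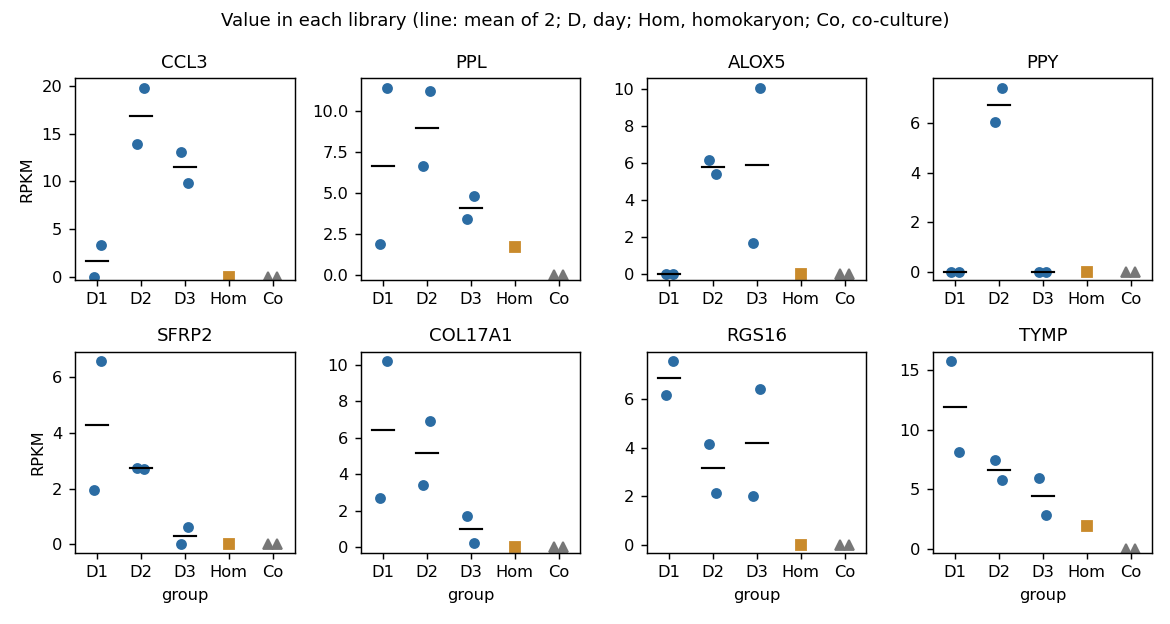
RPKM of 8 of the genes in each heterokaryon library of days 1, 2 and 3 (circles, with a line at the mean of 2), the homokaryon library (square) and both co-cultures (triangles), on linear axes that differ between genes. CCL3 and ALOX5 are higher on day 3 than on day 1, PPY is listed on day 2 alone, and SFRP2, COL17A1 and TYMP are lower on day 3 than on day 1.

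The libraries the choice did not use show how far these levels recur on other days. On day 1, 4 of the 23 genes (17.4%) were at 2 or more in both libraries: AKR1B15, COL17A1, RGS16 and TYMP. Among all 2914 silent genes, which include the 23, this held for 17 (0.583%). On day 3 it held for 5 of the 23 (21.7%), CCL3, FOXI3, PPL, RGS16 and TYMP, and for 19 of the silent genes (0.652%). Above 0 in both libraries were 11 of the 23 on day 1 (47.8%, against 1.82% of silent genes) and 16 on day 3 (69.6%, against 5.08%). The 23 genes were thus listed far more often than silent genes at large, while most stood under 2 in at least 1 library of each other day. Only ALOX5, KCNJ10, KRT81 and PPY were at 0 in both libraries of day 1, and only INPP5J and PPY in both of day 3.

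The libraries of a day differed in how many of the 23 genes reached 2 RPKM. Day 1 replicate 1 had 5 and replicate 2 had 14, while each listed 15 genes above 0. Day 3 replicate 1 had 7 and replicate 2 had 13, with 16 and 21 above 0. Among the other 2891 silent genes, 60 and 53 reached 2 in the libraries of day 1 and 39 and 61 in those of day 3. The excess of day 1 replicate 2 was therefore not seen over the silent genes at large. Of the 23 genes, 13 were higher in day 1 replicate 2 than in replicate 1 and 6 lower. By group means, 8 genes were highest on day 1, 14 on day 2 and ALOX5 on day 3, but the choice favours day 2.

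**Figure D3:**
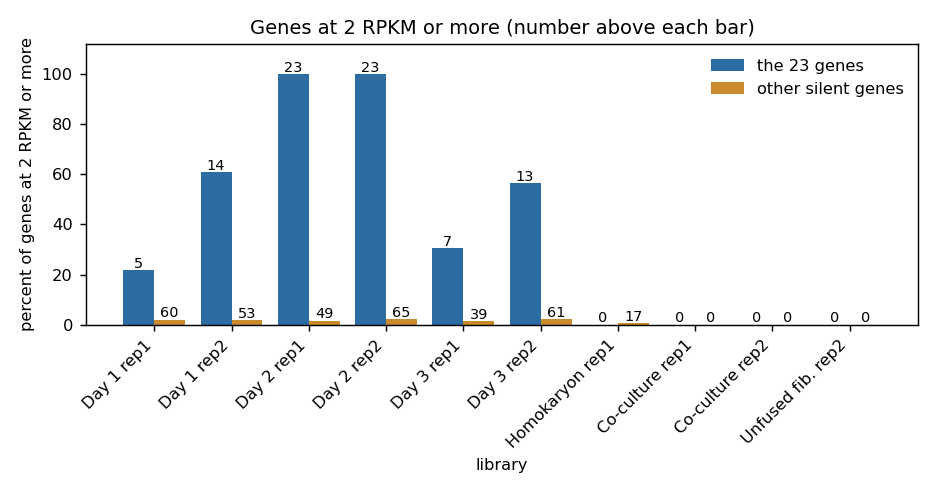
Percent of genes at 2 RPKM or more in each library, for the 23 genes and for the other 2891 silent genes, with the number of genes above each bar. Days 1 and 3 hold 5 to 14 of the 23 genes against 39 to 61 of the other silent genes, and the homokaryon library holds 0 against 17.

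The homokaryon library holds fibroblasts fused with each other. None of the 23 genes reached 2 RPKM in the homokaryon library, where 17 of the 2914 silent genes did (0.583%), among them CXCL10, APOD and AGT. At such a low share, 0 of 23 does not set these genes apart from silent genes at large. INSYN2A, PPL and TYMP were above 0 there, 3 of 23 (13.0%) against 4.46% of silent genes. The homokaryon is 1 library with no mouse cells, so its values have no replicate check, and fusion alone and the absence of mouse RNA cannot be told apart in it. Mouse RNA was present in co-culture too, where the 23 genes are at 0 by choice, and a mapping of mouse reads to these human transcripts was not tested.

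The same limits were applied to the other days. Leaving out the 23 genes and the symbols excluded by name, 11 silent genes were at 2 or more in both libraries of day 1 but not of day 2, such as POU3F1, ALDH3A1 and SCGB1A1. On day 3 there were 9 (TRIM64B also passed but has an excluded symbol), such as the keratins KRT14 and KRT17, the elastase inhibitor PI3 and the apolipoprotein APOA1.

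Day 3 against day 1 is the contrast between replicated groups that the choice of genes did not use, and it asks whether these genes differed between those days. It skips day 2, so a rise to day 2 that fell back by day 3 would not show in it. None of the 23 genes was called as different. Of the 23 genes, 18 reached 1 RPKM in at least 2 of the 4 libraries and were tested with limma on log2 of the value plus 1; INPP5J, KCNJ10, KRT81, PPY and TGM4 did not pass. At an adjusted p under 0.05, limma called 0 of the 18 and 0 of all 2632 genes tested (0%), while 3 of the 18 and 312 of the 2632 (11.9%) had an unadjusted p under 0.05. The 3 were CCL3, with a log2 difference of 2.57 (SE 0.90, limma adjusted p = 0.366), ALOX5, with 2.44 (SE 0.84, adjusted p = 0.366), and SFRP2, with -1.90 (SE 0.75, adjusted p = 0.402). COL17A1 followed with -1.79 (SE 0.85), AKR1B15 with -1.52 (SE 0.68), SOWAHB with 1.33 (SE 0.68), TYMP with -1.25 (SE 0.70), CATSPERQ with 1.08 (SE 0.97), KCTD19 with -0.85 (SE 0.75) and NPNT with 0.80 (SE 0.76).

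The differences pointed both ways. Of the 18, 12 were lower and 6 higher on day 3, with a median of -0.23 against -0.02 over all genes tested. ALOX5, CCL3 and SOWAHB were higher in both libraries of day 3 than in either of day 1, 3 of 18 where 20.6% of all tested genes were. AKR1B15, COL17A1, SFRP2 and TYMP were lower in both, 4 of 18 where 21.6% of all tested genes were. Such shares are near the background and show nothing particular to the 23 genes. Adding 1 before the logarithm understates the change of genes as low as these. Without day 1 replicate 2, where CCL3 stood at 3.34, the log2 difference of CCL3 was 3.63. Its only day 1 value was then the 0 of replicate 1, and a 0 on day 1 is uncertain. The median of the 14 genes then tested was 0.34, so day 1 replicate 2 sets the sign of the median.

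**Figure D4:**
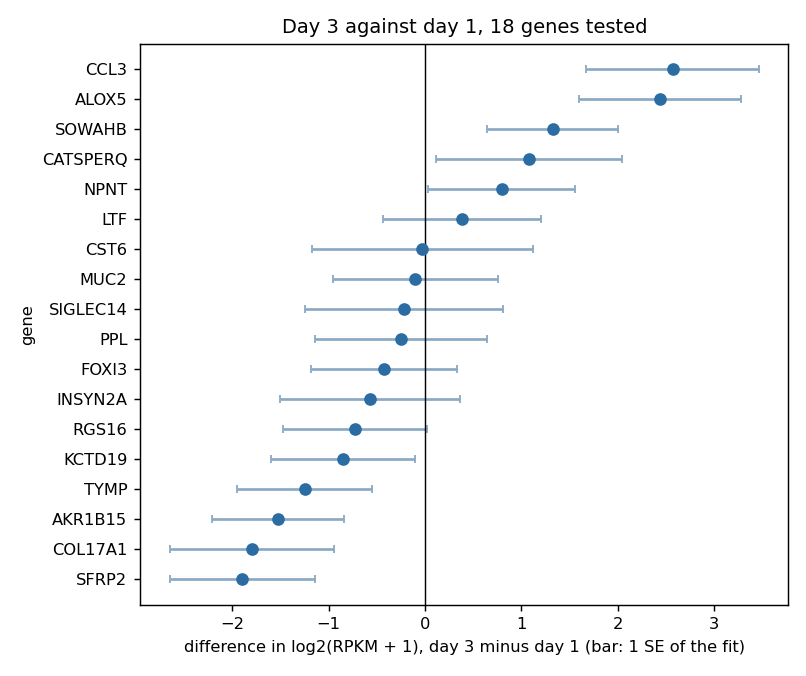
Difference in log2 of RPKM plus 1 between day 3 and day 1 for the 18 genes tested (points, with bars of 1 SE of the limma fit), ordered by size. CCL3 and ALOX5 lie highest at 2.57 and 2.44, SFRP2 lowest at -1.90, and 8 genes have bars that reach across 0.

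Of the lists drawn up for tissue and pathway themes, only MUC2 and CCL3 were among the 23. The 23 are themselves a small part of the 2914 silent and 5526 covered genes. At so low a share few list genes would be among them, so a count of 0 for a list shows nothing particular. MUC2 was the 1 of 17 covered liver and gut genes and CCL3 the 1 of 28 covered haematopoietic and immune genes. No gene of the lists for muscle (23 covered), cleavage stage (17), mitosis and S phase (16), epithelium and keratinocytes (14), interferon response (11), germ line (10), placenta (10), pluripotency (7) or neural genes (6) was. For the cleavage stage list the choice itself shaped this absence. LEUTX, KDM4E, RFPL4A and RFPL4B of that list met the same values on day 2 and were left out by name. Silent members of these lists were few to many: 17 of the 23 muscle genes and 15 of the 17 liver and gut genes were silent, against 4 of the 16 genes of mitosis and S phase. Of these silent list genes outside the 23 and outside the genes left out by name, MYL4, APOA1, KRT14 and KRT17 were at 2 or more in both libraries of day 3, and none was on day 1. In day 3 against day 1, limma called 0 genes of these lists, as it did overall. The median log2 difference was -2.60 over the 16 tested genes of mitosis and S phase and -1.76 over 9 of the interferon response, against -0.02 over all genes tested. In the other lists with a tested gene it ranged from -0.30 (8 haematopoietic and immune genes) to 2.001 (1 germ line gene), and no neural gene was tested.

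Markers of other cell types were summed in the same way. The 5 covered muscle markers summed to 17.5 to 57.4 RPKM in the heterokaryons, against 0.972 and 0 in co-culture and 0 in the homokaryon library. Nearly all of this sum was DES, at 17.5 to 55.8 in the heterokaryons. MYOD1, TNNT2 and MYH7 were at no more than 2.29 in any library, and MYOG was at 0 in every library. The 6 liver markers summed to 1.80 to 13.4, against 0.756 and 0 in co-culture, with ALB, AFP and TTR at 0 in every library. The endothelial markers summed to 31.7 to 58.2 in the heterokaryons and to 140 and 129 in co-culture, where ENG alone was at 133 and 122. ENG and TEK were lower in every heterokaryon library than in either co-culture. PECAM1, CDH5 and KDR went the other way, at 0 in both co-cultures and listed in some heterokaryon libraries, and the values of VWF overlapped. The 2 covered neural markers summed to no more than 1.17, and of the 2 covered pluripotency markers SOX2 was at 0 in every library and UTF1 was listed once, at 0.215. The part of these cell type markers in the levels of the 23 genes was not tested.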

How the data were processed

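The deposited tables give 1 value per RefSeq transcript in 12 samples. The submitters' processing notes name hg19 and mm10, and the aligner and the unit are not given in the sources used here. The authors' deposited values were taken to be RPKM from their form. Each of the 11 tables used holds at least 10000 distinct values. In accession order, the covered part was taken to end at the last accession whose value did not repeat an earlier one. For unfused fibroblast replicate 1 it was the last human coding accession whose value stood only once. Of the 10 other tables, the earliest end was at NM_003621 (day 2 replicate 1). A transcript unlisted before that end was set to 0. None of the accessions of unfused fibroblast replicate 3 is in the human RefSeq table, and that table was not used. Only the covered human part of replicate 1 was read. Coding transcripts were summed per gene with the RefSeq gene table of GRCh38.p14, used for names and neighbours only, and 79 retired accessions were named through GENCODE 29. Where the authors' counting split reads between isoforms or near copies, values are uncertain.

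Day 3 was compared with day 1 in limma 3.58.1 (R 4.3.3; lmFit, eBayes with trend) after adding 1 and taking log2. Genes had to reach 1 in 2 of the 4 libraries, with Benjamini-Hochberg adjustment over all genes tested. The fit was tested on simulated data with a common spread for all genes and planted changes larger than any seen in the 23 genes. That run does not show whether changes of the size seen here would be called. Day 2 and co-culture stayed out of the fit because the rule fixes the genes' values there. Groups follow the sample titles. By rule, every gene is named, and values in every library are given for the 12 highest on day 2, the 5 largest rises and 5 largest falls from day 1 to day 3, called genes, genes at 2 or more in the homokaryon library and members of the lists; they are given here for all 23, and fitted differences for the 5 rises and 5 falls. The genes and lists were chosen with earlier results of these data known, and the related genes and overlapping neighbours were chosen once the 23 genes were known. Alternatives covered pseudocount, filter, scaling, libraries in the fit, pairing, thresholds and left-out libraries.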

Additional observations from a re-analysis of the deposited data

How the results depend on the processing

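The count of 0 called genes, for the 23 genes and for all genes, was also 0 with a pseudocount of 0.1, no filter, upper quartile scaling, quantile normalization, day 2 or day 2 and co-culture libraries in the fit, and fewer genes. With the replicate number as a block it was 0 for all genes and for the 23 (the samples share only a number: r = 0.0391 between the deviations of days 1 and 3 across 2632 genes). Leaving out 1 library gave 0 to 77 called genes in all (54 without day 1 replicate 1, 77 without day 1 replicate 2) and 0 to 1 of the 23; the remaining day 1 library is then assumed to vary like day 3. CCL3 was the 1, in the fit without day 1 replicate 2, where its only day 1 value was the 0 of replicate 1.

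The number of genes depends on the limit and on single libraries. A limit of 1 on day 2 gave 54 and a limit of 4 gave 6. Without 1 library, an alternative chosen after seeing the data, it ranged from 39 (without co-culture replicate 1) to 78 (without day 2 replicate 1), with 44 without co-culture replicate 2 and 56 without day 2 replicate 2. Using the largest transcript in place of the sum gave 22, a set that lacks LTF, NPNT and TYMP and takes in genes outside the 23. With a limit of 1, 9 genes passed in both libraries of day 1, 11 in both of day 3 and 2 in the homokaryon library, and with a limit of 4, 1 passed on day 3. Without a library of the day, 5 to 14 genes passed on day 1 and 7 to 13 on day 3; the lower values are those of replicate 1 alone. Day 1 zeros are the least certain.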
